A study of Homo sapiens with 4 samples.

Results

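The genes described here are those of interleukin-6 signalling in myeloma cells: the receptor chains IL6R and IL6ST, the kinases JAK1, JAK2 and TYK2, the transcription factor STAT3, the feedback inhibitors SOCS1 and SOCS3, and the survival kinases PIM1 and PIM2. They were taken by name, and 9 of the 10 listed genes (the members) had a named probe set, out of 14884 genes named on the arrays. IL6ST was not analysed here. RNA of ARP-1 and MM.1S, established human myeloma lines (myeloma is a plasma cell cancer), was hybridised to 4 whole-transcript arrays. The arrays are MIF-KO ARP-1, CTR-KO ARP-1, MIF-KO MM.1S and CTR-KO MM.1S, with 1 array each, so each condition has n = 2 arrays, 1 per line. MIF-KO cells carried a lentiviral short hairpin RNA against MIF (a secreted inflammatory cytokine) and CTR-KO cells a control hairpin. The labels call both a knockout, although a hairpin lowers a transcript and leaves the gene in place. All cells were infected with lentivirus, sorted by a green fluorescent marker (GFP+) and grown in the same serum-containing medium, and the labels state neither added interleukin-6 nor how many clones or cultures a line stands for. No line and hairpin was repeated in a further culture, so p-values measure only the spread between these 4 arrays, in which the disagreement of the lines and technical spread cannot be told apart.

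Interleukin-6 is the classic growth and survival factor of plasma cells, supplied in bone marrow largely by stromal cells. It binds IL6R, and the pair recruits the shared signalling chain gp130, the product of IL6ST. The kinases bound to gp130 then phosphorylate STAT3, which enters the nucleus and switches on target genes, among them SOCS3 and PIM1. SOCS1 and SOCS3 bind back to the kinases or to gp130 and shut the signal down.

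The arrays were checked before the pathway was described. MIF had an intensity of 541 on the MIF-KO array and 1092 on the CTR-KO array of ARP-1. In MM.1S it had 405 on the MIF-KO array and 1012 on the CTR-KO array, so it was lower under its hairpin in both lines. Differences of at least that size were found in 6.38% of tested genes within ARP-1 and in 0.322% within MM.1S. Averaged over the lines, MIF differed by -1.17 (log2, SE 0.29), with a limma p of 0.010 before adjustment. Its limma adjusted p was 0.99995, so the fit described below did not call even the hairpin target. For ARP-1, title and free-text description contradict each other on both arrays as to which hairpin was used. Titles and genotype labels were followed, and an exchange of these arrays would turn the sign of every ARP-1 difference given here. The median intensity of an array lay between 13.1 and 13.3. Across tested genes the CTR-KO ARP-1 array was the one farthest from the median of the other 3 for 38.93% of genes, while MIF-KO ARP-1 was so for 25.28%, MIF-KO MM.1S for 15.79% and CTR-KO MM.1S for 20.01%. Of the plasma cell markers, IRF4, the plasma cell transcription factor, ranged from 3579 to 4380 and XBP1, which builds the secretory apparatus, from 930.4 to 1321. The surface proteoglycan SDC1 was 184 on the MIF-KO array and 471 on the CTR-KO array of ARP-1 (log2 difference -1.36), and 471 (MIF-KO) and 337 (CTR-KO) in MM.1S. The surface enzyme CD38 was 41.8 (MIF-KO) and 113 (CTR-KO) in ARP-1 (-1.44), and 56.2 (MIF-KO) and 41.0 (CTR-KO) in MM.1S. SLAMF7 ranged from 62.1 to 122, MZB1 from 399 to 774, and POU2AF1, near the filter on dim genes, from 32.7 to 37.3. The part of these marker differences in the results was not tested. Of 11 listed markers, 8 were named and 7 lay above the filter on dim genes. All 3 named markers of mature B cells, both of T cells and both of stroma lay below that filter, with summed intensities of 37.5 to 40.4, 15.4 to 18.5 and 9.93 to 11.7. Of 5 myeloid markers 1 lay above it (FCN1, at 29.0 to 37.1), and their sum ranged from 74.0 to 90.1. The arrays give no value of 0, so absence of a marker has no floor here.

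Promoter sequences of the pathway are shown for the 3 genes whose window holds a STAT-type motif, which include the most variable member, IL6R. The window runs from 250 bases before to 50 bases after the annotated start of the gene (RefSeq, GRCh38.p14), and all 10 listed genes had one. STAT factors bind sites made of TTC and GAA around a short spacer, and each such motif reads the same on both strands. With a spacer of 3 bases, TTCNNNGAA, 0 of the 10 windows matched, against 7.88% of 27305 promoters. Spacers of 2 and 4 bases were searched after that result was seen. TTCNNGAA was found in 3 of the 10, against 7.84% of all promoters, and TTCNNNNGAA in 0, against 6.37%. The matches begin 248 bases before the start in IL6R, 131 in STAT3 and 215 in SOCS3. Capitals below mark the match, and each line is written along the strand of the gene. The IL6R window is chr1:154405093-154405392 on the plus strand, that of STAT3 is chr17:42388393-42388692 on the minus strand and that of SOCS3 is chr17:78360876-78361175 on the minus strand. A match describes letters in a window and does not show a bound site.
IL6R promoter: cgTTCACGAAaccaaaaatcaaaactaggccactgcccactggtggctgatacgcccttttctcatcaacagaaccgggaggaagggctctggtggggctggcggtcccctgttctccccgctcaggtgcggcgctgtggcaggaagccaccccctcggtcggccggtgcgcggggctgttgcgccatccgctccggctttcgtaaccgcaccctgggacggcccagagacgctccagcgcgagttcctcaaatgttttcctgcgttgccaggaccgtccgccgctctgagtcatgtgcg
STAT3 promoter: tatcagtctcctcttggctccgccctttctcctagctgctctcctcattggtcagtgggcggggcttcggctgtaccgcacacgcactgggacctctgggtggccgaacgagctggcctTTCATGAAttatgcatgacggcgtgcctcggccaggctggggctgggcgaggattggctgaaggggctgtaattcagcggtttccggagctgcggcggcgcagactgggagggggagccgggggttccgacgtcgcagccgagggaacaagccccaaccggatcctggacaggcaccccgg
SOCS3 promoter: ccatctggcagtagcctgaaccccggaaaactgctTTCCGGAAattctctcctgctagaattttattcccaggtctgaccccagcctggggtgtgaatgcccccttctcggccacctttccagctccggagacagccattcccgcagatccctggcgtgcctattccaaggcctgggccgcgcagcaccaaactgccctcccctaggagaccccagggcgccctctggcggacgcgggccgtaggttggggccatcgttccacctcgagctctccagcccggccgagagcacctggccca

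IL6R was the member that differed most between arrays, and 1 array, CTR-KO MM.1S, stood apart. This gene encodes the chain that binds interleukin-6 itself. Its intensity was 932 on the MIF-KO array and 249.7 on the CTR-KO array of MM.1S. In ARP-1 it was 607 on the MIF-KO array and 741 on the CTR-KO array. The MIF-KO array of ARP-1 thus lay within the range of the CTR-KO arrays and that of MM.1S above it, so the conditions overlap. Within MM.1S the MIF-KO array was 3.73-fold the CTR-KO array (a log2 difference of 1.90), which only 0.0269% of the 7442 tested genes matched or exceeded in size, IL6R included. Within ARP-1 the difference was -0.29, a size that 50.9% of tested genes matched or exceeded. The array farthest from the other 3 for IL6R was CTR-KO MM.1S, so its large difference goes with a low control value in that line. In RNA of whole cultures, more cells with the transcript and more transcript per cell cannot be told apart. Averaged over the 2 lines, IL6R differed by 0.81 (SE 0.57, 95% interval -0.66 to 2.27), with a limma adjusted p of 0.99995.

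**Figure D1:**
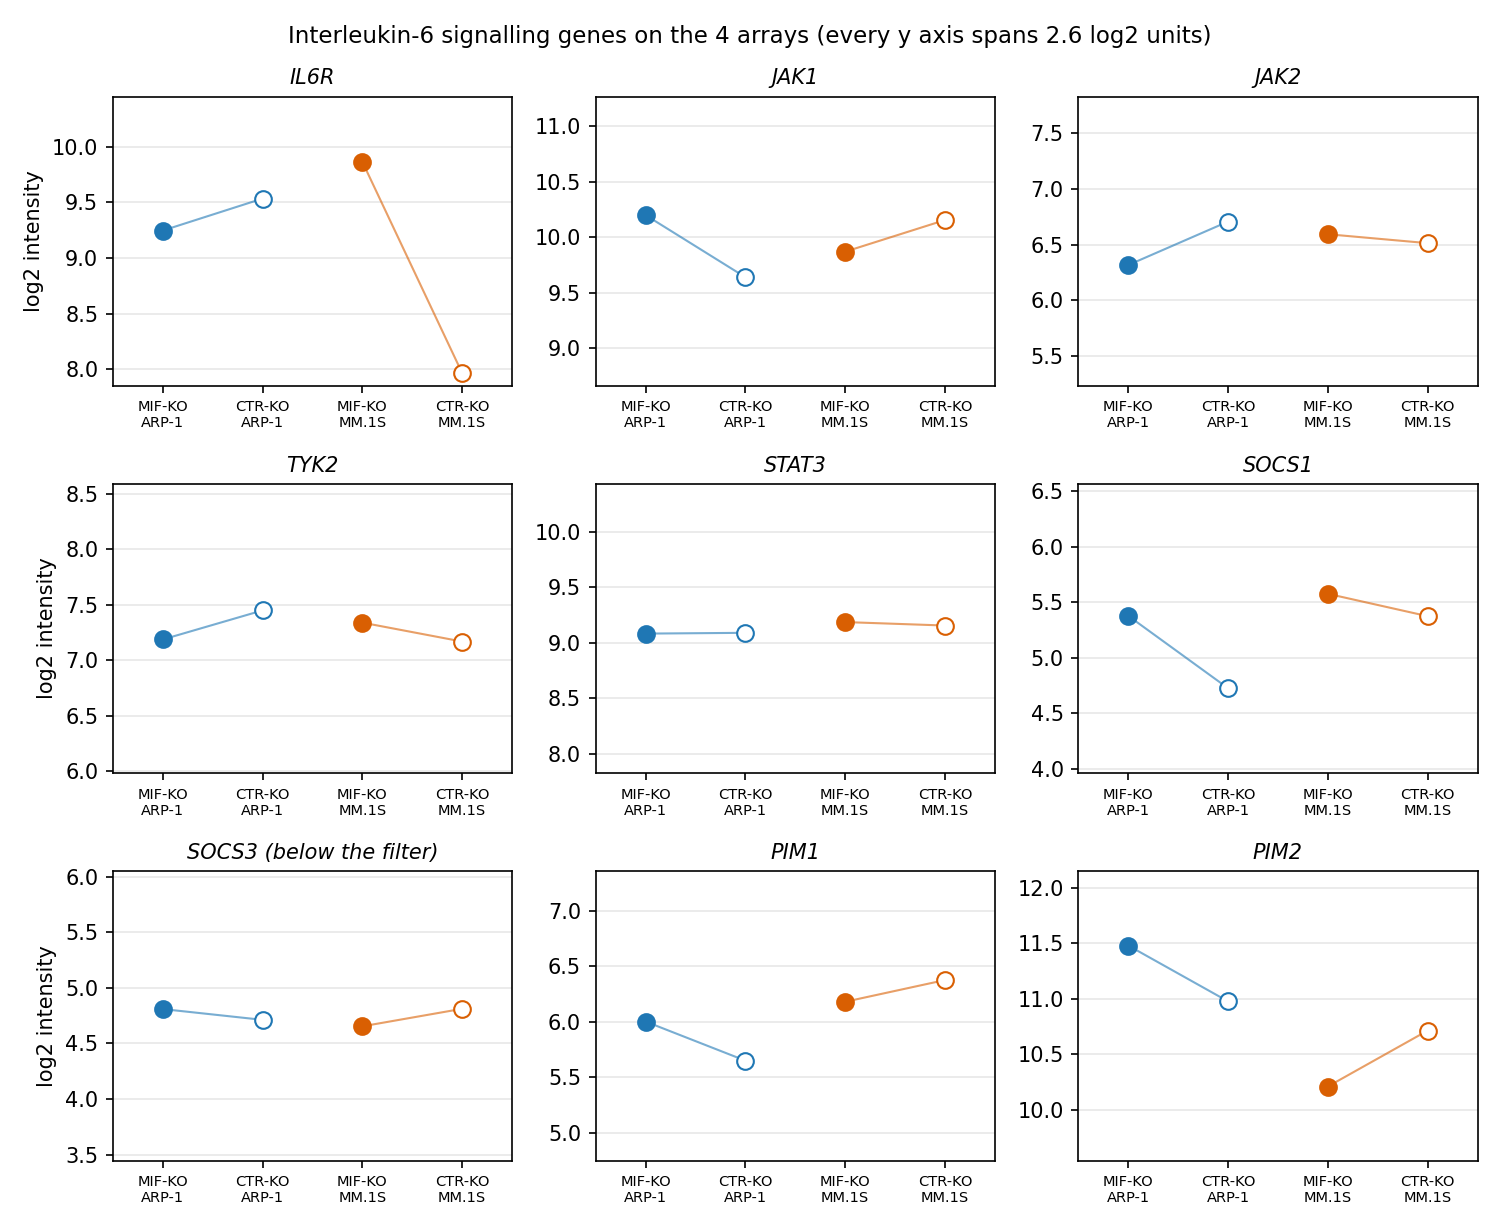
Log2 intensity (y axis, spanning 2.6 log2 units in every panel) of the 9 measured interleukin-6 signalling genes on the 4 arrays (x axis), with filled points for MIF-KO, open points for CTR-KO, blue for ARP-1 and orange for MM.1S. Lines join the arrays of a cell line. IL6R is lowest on the CTR-KO MM.1S array at 7.96, while STAT3 spans 0.10 over the 4 arrays.

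The kinases differed less, and JAK1 was on opposite sides of its control in the lines. JAK1, a main kinase of gp130, had an intensity of 1175 on the MIF-KO array and 798 on the CTR-KO array of ARP-1. In MM.1S it was 935 on the MIF-KO array and 1139 on the CTR-KO array. It was lowest on CTR-KO ARP-1, and the groups overlap. The log2 differences were 0.56 within ARP-1 and -0.28 within MM.1S, and the mean was 0.14 (SE 0.33, 95% interval -0.71 to 0.98). JAK2, the second gp130 kinase, had intensities of 79.6 (MIF-KO) and 104 (CTR-KO) in ARP-1 and of 96.5 (MIF-KO) and 91.3 (CTR-KO) in MM.1S. TYK2, the third kinase of the family that gp130 can use, had 146 (MIF-KO) and 175 (CTR-KO) in ARP-1 and 162 (MIF-KO) and 144 (CTR-KO) in MM.1S. Both were lower on the MIF-KO array in ARP-1 and higher on it in MM.1S, by -0.39 and 0.08 for JAK2 and by -0.26 and 0.17 for TYK2, and their groups overlap. Their mean differences were -0.16 (SE 0.29) for JAK2 and -0.05 (SE 0.31) for TYK2.

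STAT3, the transcription factor at the end of the pathway, had nearly the same value on every array. Its intensity was 543 on the MIF-KO array and 545 on the CTR-KO array of ARP-1. In MM.1S it was 583 on the MIF-KO array and 571 on the CTR-KO array. The differences between conditions were -0.007 within ARP-1 and 0.03 within MM.1S, with a mean of 0.01 (SE 0.29). Of the tested genes, 98.5% were at least as far apart within ARP-1 and 91.2% within MM.1S. The 95% interval of the mean, -0.74 to 0.76, is set mostly by the variance that limma shares over genes. The arrays measure transcript and give no value for phosphorylated STAT3.

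Of the feedback inhibitors, SOCS1 was the single tested member on the same side of its control in both lines. SOCS1, which blocks the catalytic site of JAK kinases, had an intensity of 41.6 on the MIF-KO array and 26.5 on the CTR-KO array of ARP-1. In MM.1S it was 47.7 on the MIF-KO array and 41.5 on the CTR-KO array. Both MIF-KO arrays were above both CTR-KO arrays, by the narrow gap between 41.57 and 41.48. Such an order was found in 11.2% of tested genes, and the reverse, MIF-KO below CTR-KO, in 9.47%. The differences were 0.65 within ARP-1 and 0.20 within MM.1S, and the mean was 0.43 (SE 0.22, 95% interval -0.15 to 0.99999, limma adjusted p = 0.99995). For SOCS1, too, CTR-KO ARP-1 was the array farthest from the rest, and an exchange of both ARP-1 arrays turned its mean to -0.22. SOCS3, which binds gp130 and its kinases, had 28.0 (MIF-KO) and 26.2 (CTR-KO) in ARP-1 and 25.2 (MIF-KO) and 28.1 (CTR-KO) in MM.1S. Its mean log2 level of 4.75 was under the filter of 4.97, so it was not tested with the rest, and its differences were 0.10 within ARP-1 and -0.16 within MM.1S. A fit of all genes with no filter gave SOCS3 a mean difference of -0.03 (SE 0.20, limma adjusted p = 0.99996). The other SOCS3 probe set was dimmer still, at 5.40 to 6.93.

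PIM2 had opposite differences of equal size in the lines. It is a kinase that promotes survival and protein synthesis and is strongly expressed in myeloma. Its intensity was 2854 on the MIF-KO array and 2015 on the CTR-KO array of ARP-1. In MM.1S it was 1186 on the MIF-KO array and 1679 on the CTR-KO array. The log2 differences were 0.50 and -0.50, and the mean was -0.00013 (SE 0.33, 95% interval -0.85 to 0.85). PIM1, the related kinase that is a textbook STAT3 target, had 64.1 (MIF-KO) and 50.3 (CTR-KO) in ARP-1 and 72.6 (MIF-KO) and 83.1 (CTR-KO) in MM.1S. The PIM1 differences were 0.35 within ARP-1 and -0.20 within MM.1S, with a mean of 0.08 (SE 0.27). For PIM1 the low array was CTR-KO ARP-1. The conditions overlap for both kinases.

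Set side by side, 7 of the 8 tested members had opposite signs in the lines, beside 67.6% of all tested genes, and SOCS1 was the exception. In ARP-1, 1 member (SOCS1) was at least 1.5-fold higher in MIF-KO, beside 10.9% of tested genes, and 0 were lower, beside 11.9%. In MM.1S, 1 member (IL6R) was at least 1.5-fold higher, beside 5.12% of tested genes, and 0 were lower, beside 2.89%. The median difference of the members was 0.17 within ARP-1 and 0.06 within MM.1S, and over all tested genes it was -0.03 and 0.04. The median size of the difference, without its sign, was 0.37 for the members and 0.29 for all genes in ARP-1, and 0.20 for both in MM.1S. CTR-KO ARP-1 was the array farthest from the other 3 for 4 of the 8 members (JAK1, TYK2, SOCS1 and PIM1), beside 38.93% of tested genes. In the fit over both lines, limma called 0 of the 8 members, and 0 of 7442 genes (0.0% higher and 0.0% lower), with Benjamini-Hochberg adjustment at a threshold of 0.05. Adjusted values began at 0.99995. Before adjustment 29 genes (0.39%) were under 0.05, and 0 of them were members. Evenly spread p-values would give a share of 0.05, so the p-values of this fit ran high. That 0 members were called therefore says little about the members. With the ARP-1 arrays exchanged limma called 401 genes, again with 0 members among them. The error of this fit joins the disagreement of the lines with the variance that limma shares over genes. Opposite differences widen the first part, and a missed threshold does not show that the conditions act alike.

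**Figure D2:**
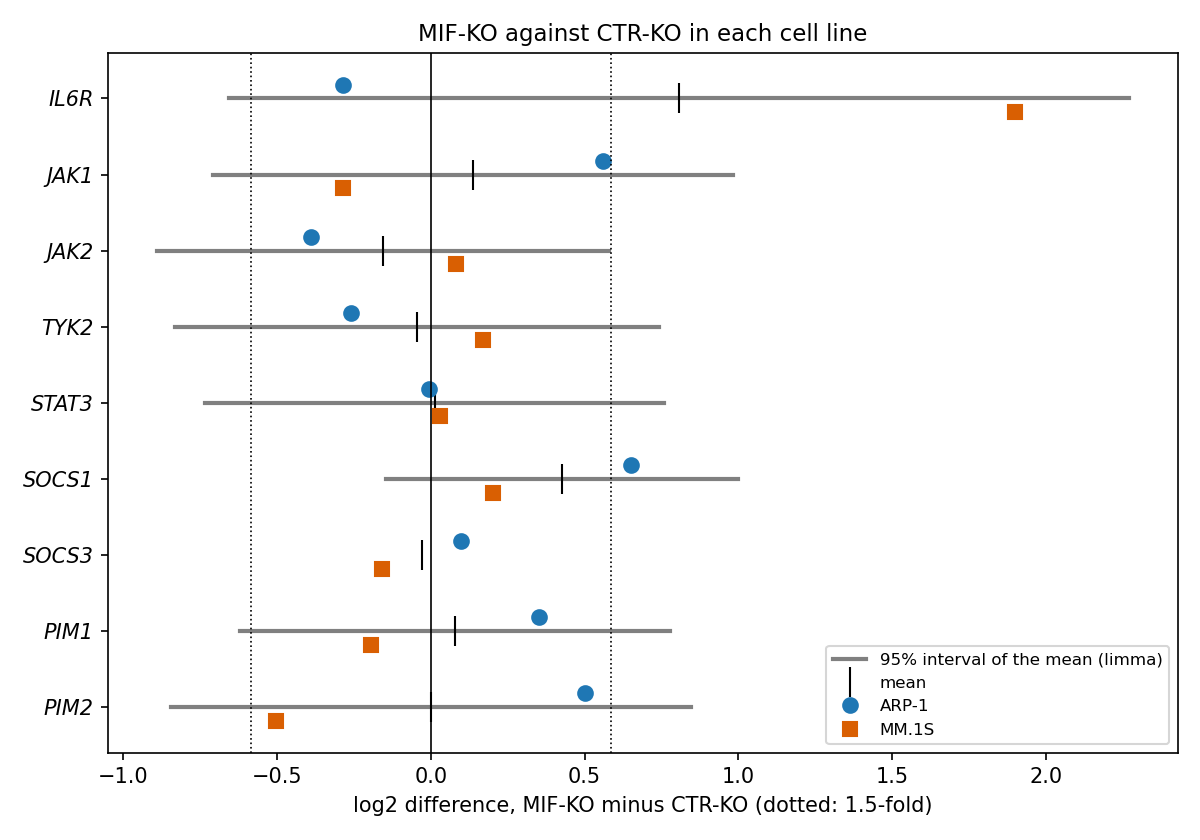
Log2 difference of MIF-KO minus CTR-KO (x axis) for each measured member (y axis), with blue circles for ARP-1, orange squares for MM.1S, a black tick for the mean and a grey bar for its 95% limma interval, which SOCS3 lacks because it lay under the filter. All 8 intervals include 0, and IL6R in MM.1S, at 1.90, is the farthest point.

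Between the lines, PIM2 was lower in MM.1S under both hairpins. With the values given above, the MM.1S array was 0.415 times the ARP-1 array in MIF-KO cells (log2 -1.27) and 0.833 times in CTR-KO cells (log2 -0.26). The lines did not overlap for PIM2, an order found with MM.1S lower in 11.6% of tested genes, and 0.914% of tested genes were at least as far apart in MIF-KO cells and 54.3% in CTR-KO cells. The mean difference of PIM2 was -0.77 (SE 0.33, 95% interval -1.61 to 0.08, limma adjusted p = 0.99986). PIM1 ran the other way, higher in MM.1S by 0.18 in MIF-KO cells and 0.72 in CTR-KO cells (mean 0.45, SE 0.27, 95% interval -0.25 to 1.15). STAT3 was also higher on both MM.1S arrays, by 0.10 and 0.07. MM.1S lay wholly above ARP-1 in 15.8% of tested genes, PIM1 and STAT3 among them. Across tested genes the line differences in MIF-KO and in CTR-KO cells correlated at r = -0.37. A higher line difference under 1 hairpin thus tended to go with a lower one under the other, and the cause was not tested.

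The order of the lines for IL6R was not the same on the MIF-KO and the CTR-KO arrays, with 1 array per line and condition. In MIF-KO cells IL6R was higher in MM.1S by 0.62 (1.53-fold), while in CTR-KO cells it differed by -1.57 (0.337 times ARP-1). Its mean line difference was -0.48 (SE 0.57, 95% interval -1.94 to 0.99). JAK1 differed between MM.1S and ARP-1 by -0.33 in MIF-KO cells and 0.51 in CTR-KO cells, JAK2 by 0.28 and -0.19, and TYK2 by 0.15 and -0.28. SOCS1 was higher in MM.1S by 0.20 in MIF-KO cells and 0.65 in CTR-KO cells, with a mean of 0.42 (SE 0.22). Its lines overlap at 41.5 in CTR-KO MM.1S against 41.6 in MIF-KO ARP-1. The size of the line difference was larger in CTR-KO cells for IL6R, JAK1, TYK2, SOCS1 and PIM1, and larger in MIF-KO cells for JAK2, STAT3 and PIM2. Its median over the tested members was 0.40 in CTR-KO cells and 0.24 in MIF-KO cells. Over all tested genes it was also larger in CTR-KO cells, at 0.29 against 0.23.

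At 1.5-fold in MIF-KO cells, 1 member was higher in MM.1S (IL6R), beside 8.22% of tested genes, and 1 was lower (PIM2), beside 4.37%. In CTR-KO cells 2 were higher (SOCS1 and PIM1), beside 11.2%, and 1 was lower (IL6R), beside 11.1%. In the limma fit 0 of the 8 members passed, beside 0.0% of all tested genes in either direction. Before adjustment 87 genes (1.17%) had a p below 0.05, again under the share of 0.05 that evenly spread p-values would give. The lowest p of a member was that of PIM2, at 0.0678 unadjusted, with the limma adjusted p given above.

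**Figure D3:**
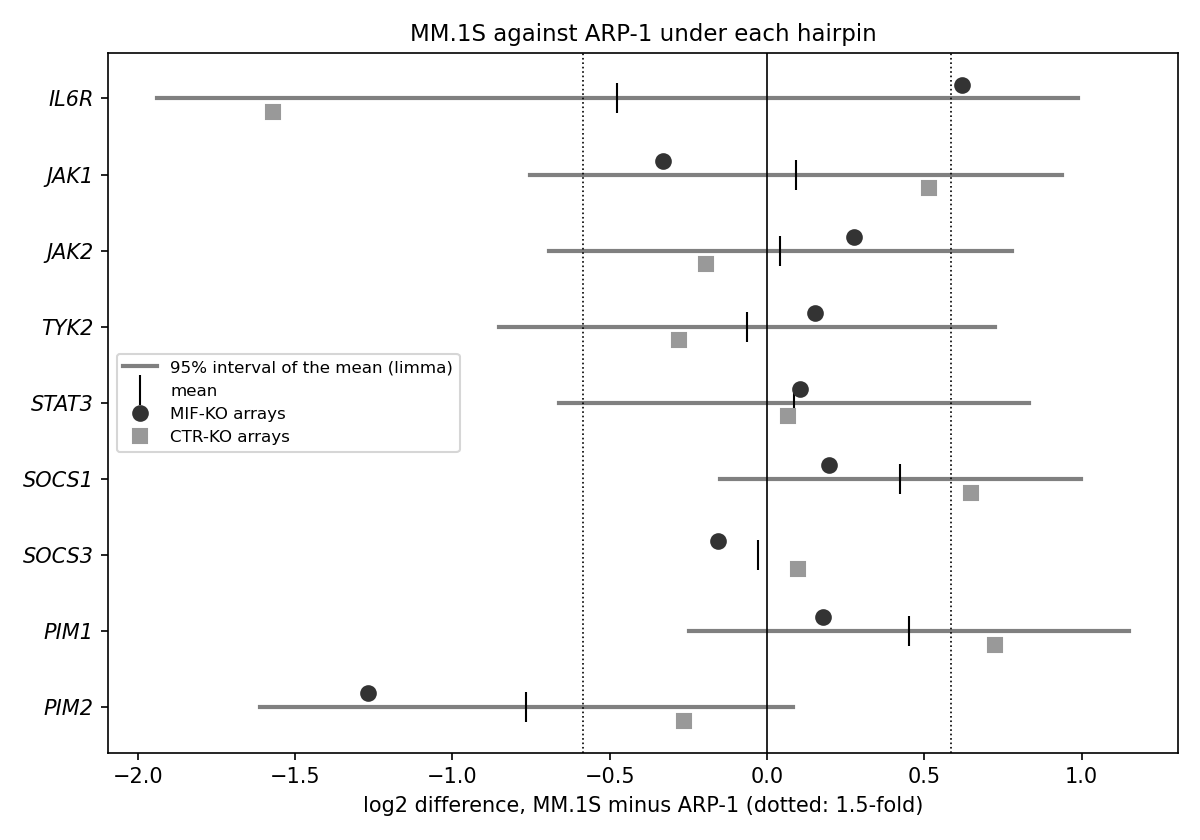
Log2 difference of MM.1S minus ARP-1 (x axis) for each measured member (y axis), with dark circles for MIF-KO arrays, grey squares for CTR-KO arrays, a black tick for the mean and a grey bar for its 95% limma interval (none for SOCS3). PIM2 lies left of 0 under both hairpins, at -1.27 and -0.26, while the IL6R points lie on opposite sides, at 0.62 and -1.57.

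The rest of the pathway was read from lists of ligands, receptors, kinases, inhibitors, adaptors and STAT3 targets. Of 62 further genes, 38 were named and 28 lay above the filter. By limma 0 of the 28 passed for condition and 0 for line. In ARP-1, 4 (SOCS7, GAB1, VEGFA and IRF9) reached 1.5-fold upward in MIF-KO and 0 downward, beside 10.9% and 11.9% of all tested genes. In MM.1S, 1 (FOS) reached it upward and 1 (IRF9) downward, beside 5.12% and 2.89%. In 19 of the 28 the differences of the lines had opposite signs, close to the 67.6% of all tested genes.

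Of 6 named ligands of the family 2 were tested, and neither reached 1.5-fold in a line. IL11 had intensities of 47.9 (MIF-KO) and 49.5 (CTR-KO) in ARP-1 and of 50.3 (MIF-KO) and 43.1 (CTR-KO) in MM.1S. The cardiotrophin gene CTF1 differed by 0.10 within ARP-1 and 0.11 within MM.1S. LIF, OSM, IL27 and EBI3 lay below the filter, and IL6 was not analysed here. All 3 named receptors that pair with gp130 (LIFR, OSMR and CNTFR) lay below the filter, at 7.60 to 25.1. The proteases that release soluble IL6R differed less than IL6R did in MM.1S: ADAM10 differed by 0.08 within ARP-1 and 0.01 within MM.1S, and ADAM17 by 0.28 and 0.16.

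Among the other kinases and STAT factors, JAK3, the lymphoid JAK kinase, differed by -0.55 within ARP-1 and 0.17 within MM.1S. STAT4 differed by -0.16 and 0.06, and STAT5B by 0.29 and 0.12. None of these 3 reached 1.5-fold in either line.

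Of the other SOCS genes 5 of 6 were tested. SOCS7 had 105 (MIF-KO) and 65.9 (CTR-KO) in ARP-1 and 118 (MIF-KO) and 172 (CTR-KO) in MM.1S, with differences of 0.67 and -0.54. Its values follow the direction of PIM2 and JAK1 in both lines. SOCS4 ran the opposite way, by -0.40 and 0.33. SOCS2, a feedback gene of growth hormone signalling, differed by -0.17 and -0.23, SOCS5 by 0.27 and -0.07, and SOCS6 by 0.21 and -0.03. The 11 listed PIAS genes, phosphatases and related inhibitors were not analysed here.

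Adaptors carry the gp130 signal to the ERK and PI3K branches, and 4 of 5 were tested. GAB1, a docking protein, had 76.7 (MIF-KO) and 44.5 (CTR-KO) in ARP-1 and 66.0 (MIF-KO) and 94.6 (CTR-KO) in MM.1S, with differences of 0.78 and -0.52. SOS1, the RAS exchange factor, differed by 0.43 and -0.15. GRB2, which brings SOS1 to receptors, differed by -0.12 and 0.17, and the adaptor SHC1 by 0.15 and 0.09.

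Known STAT3 targets differed in no common direction. Over 12 tested genes their median difference was 0.10 within ARP-1 and -0.14 within MM.1S. FOS, an immediate early gene, had 192 (MIF-KO) and 222 (CTR-KO) in ARP-1 and 153 (MIF-KO) and 76.3 (CTR-KO) in MM.1S. Like IL6R, FOS was lowest on the CTR-KO MM.1S array, with differences of -0.21 and 1.003. VEGFA, the angiogenic factor, differed by 1.28 within ARP-1 and -0.31 within MM.1S. IRF9, a partner of STAT factors in interferon signalling, differed by 1.04 and -0.81. Survivin, BIRC5, was on the lower side in both lines, at -0.45 and -0.28 (mean -0.36, limma adjusted p = 0.99995). Between the lines (MM.1S minus ARP-1), FOS differed by -0.33 in MIF-KO cells and -1.54 in CTR-KO cells, and SOCS7 by 0.17 and 1.39. VEGFA differed by -0.08 and 1.51 and IRF9 by -1.44 and 0.42, so their signs were opposite on the MIF-KO and the CTR-KO arrays. The means over both conditions were -0.93 for FOS, 0.78 for SOCS7, 0.72 for VEGFA and -0.51 for IRF9, and none passed.

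**Figure D4:**
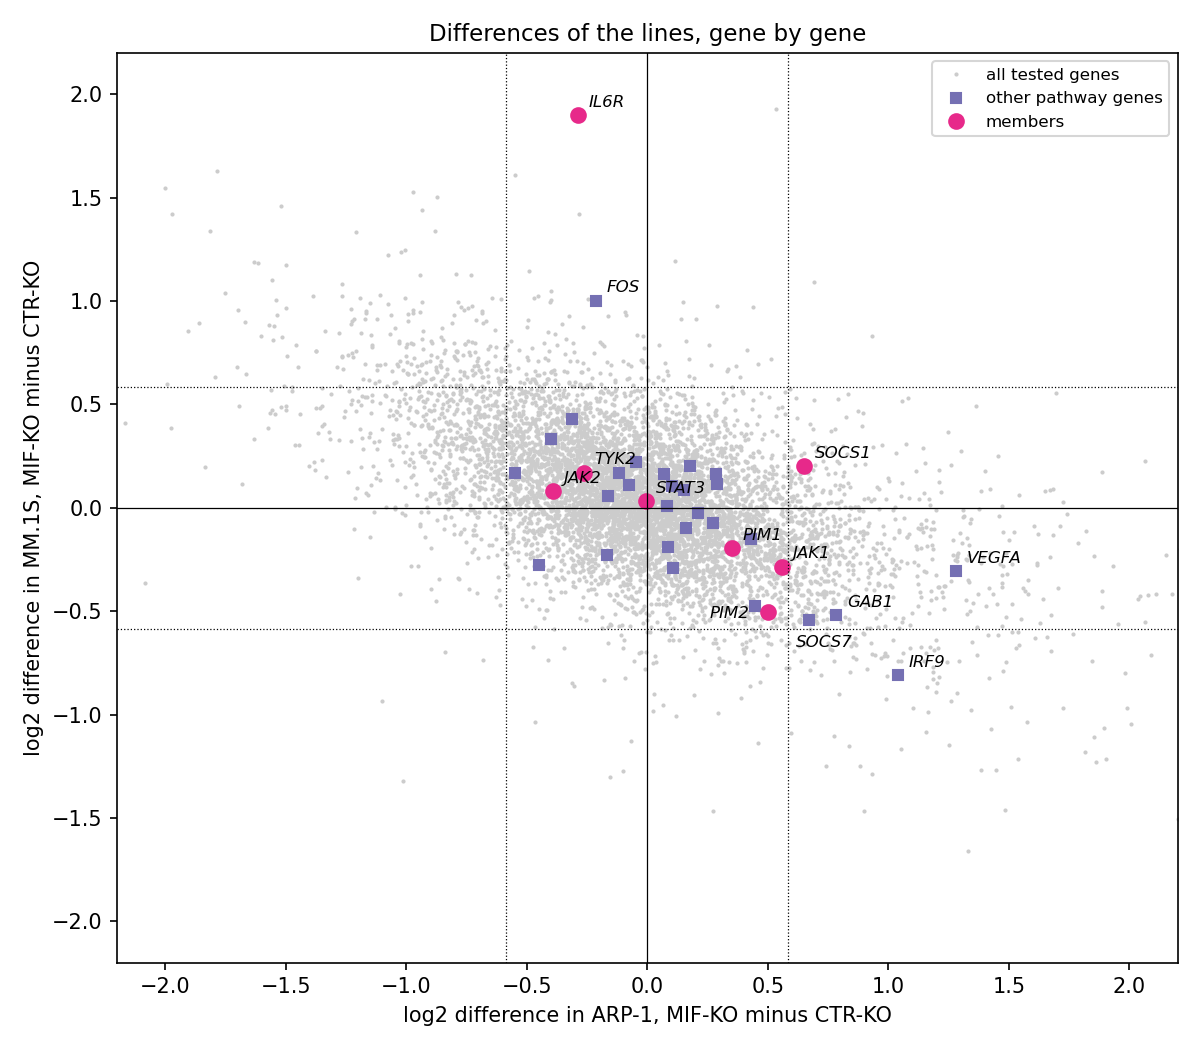
Log2 difference of MIF-KO minus CTR-KO in ARP-1 (x axis) and in MM.1S (y axis) for all tested genes (grey), the 8 tested members (pink circles) and the 28 other tested pathway genes (purple squares). Dotted lines mark 1.5-fold, and 30 tested genes lie outside the plotted range of 2.2. IL6R, at -0.29 and 1.90, lies near the upper edge, and FOS, at -0.21 and 1.003, is the nearest pathway gene to it.

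Genes with array profiles most like those of the 3 most variable members were found by the root mean square distance between centred log2 profiles over the 4 arrays. For IL6R the nearest was HHLA2 at a distance of 0.18, followed by TCEAL3 at 0.28 and SLFN13 at 0.31. HHLA2 had 85.8 (MIF-KO) and 125 (CTR-KO) in ARP-1 and 153 (MIF-KO) and 50.1 (CTR-KO) in MM.1S. For PIM2 the nearest were ANKRD44 at 0.09, NABP1 at 0.10 and PRICKLE2 at 0.10. For SOCS1 they were JHY at 0.03, TCAIM at 0.04 and ELOVL5 at 0.04. These distances rest on 4 arrays and only describe them. Of the 3 members, IL6R was farthest from its nearest gene, but the distance was not scaled to the range of a profile. That range over the 4 arrays had the same order, at 1.90 for IL6R, 1.27 for PIM2 and 0.85 for SOCS1 (log2).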

How the data were processed

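Whole-transcript arrays were measured for 4 samples, 1 per cell line and condition. The authors deposited probe set intensities on a linear scale (2.74 to 15935). RMA and limma are named, without version, per the submitters' processing notes; the background step, annotation and build were not given in the sources used here. Log2 was taken with no pseudocount. A platform annotation named 16098 of 53617 probe sets with 1 symbol, 0 with several, and 37519 had none; all 16098 matched RefSeq by Entrez ID. The brightest probe set stood for a gene. Tested were the 7442 of 14884 genes whose mean log2 level reached the median gene, 4.97.

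The model in limma 3.58.1 (R 4.3.3) had cell line and condition as terms and eBayes with a trend, leaving 1 residual degree of freedom beside a prior of 3.99. P-values were adjusted by Benjamini-Hochberg over all tested genes. Cell line, from the labels, is the pairing. Deviations of same-line arrays from condition means correlated across genes at r = -0.37. A line difference shared by both conditions would give a positive r, so same-line arrays were not alike in this sense. The cause of the negative r was not tested. Within a line or condition there is no test, and 1.5-fold is a description. The number of arrays, 1 per line and condition, limits the precision. RMA gives no depth or detection call. On simulated data (20 runs of 7442 genes, for MIF-KO against CTR-KO) the fit recovered 3.1% of 2-fold, 56.9% of 4-fold and 93.5% of 8-fold changes. The simulated noise was independent between arrays, unlike the real deviations with r = -0.37. These rates therefore may not hold for the real arrays.

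Members and lists were chosen with earlier results of these data known. Named genes are all members, MIF, and up to 3 tested genes per list by mean condition difference and 3 by line difference. The 3 nearest profiles of the 3 most variable members are named too. IRF4, MZB1, POU2AF1 (as markers) and STAT5A, CISH and GAB2 fall outside this rule and were chosen after their values were seen. Also outside it are the ligands and receptors given as below the filter, LIF, OSM, IL27, EBI3, LIFR, OSMR and CNTFR. Alternatives changed the filter, scaling, probe set rule, pseudocount, variance model, terms, arrays left out and the assignment of the ARP-1 arrays. The planned comparison of protein sequences was not made.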

Additional observations from a re-analysis of the deposited data

Results flagged for a closer look

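MIF-KO minus CTR-KO had opposite signs in ARP-1 and MM.1S for 8 of the 9 measured members, which was not tested because each line has 1 array per condition. The difference between the responses (MM.1S minus ARP-1, log2) was 2.19 for IL6R, -0.84 for JAK1, 0.47 for JAK2, 0.43 for TYK2, 0.038 for STAT3, -0.25 for SOCS3, -0.55 for PIM1 and -1.004 for PIM2. Opposite signs were found in 67.6% of all tested genes. With the ARP-1 arrays exchanged, as their descriptions have it, these genes would have the same sign in both lines, and SOCS1 opposite signs. Under that exchange MIF itself would be higher with its own hairpin in ARP-1, at 1092 against 541. Its difference within ARP-1 as titled, -1.01, had a size that 6.38% of tested genes matched or exceeded. Over all tested genes, limma called 401 for condition with the ARP-1 arrays exchanged and 0 as titled. Which assignment is right was not tested.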

How the results depend on the processing

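Under the alternatives that left out no array, 65 of 162 values of members differed from those reported, the rest being fixed by the alternative's construction or equal as written. Of the 65, 56 kept their direction and 9 reversed, and 0 of the 162 newly passed the threshold. Some of the 162 had no adjusted p and could not pass. These were SOCS3 in every setting with a filter, and JAK2, SOCS1 and PIM1 under the stricter filter. With the ARP-1 arrays exchanged, limma called 401 genes for condition (0 for line), none of them a member: the lowest adjusted p of a member was 0.061 for IL6R in condition and 0.092 for PIM2 in line. Under that exchange the mean condition difference turned to -0.42 for JAK1, 0.24 for JAK2, 0.22 for TYK2, -0.22 for SOCS1 and -0.27 for PIM1. Differences near 0 turned in STAT3 (-0.0047, arrays shifted to the same median), PIM2 (0.0010, log2 of intensity plus 16) and SOCS3 (0.053 in condition and 0.10 in line, mean of its probe sets). No other setting called a gene by adjusted p. Without the cell line term (no replicate block) 0 genes were called and 41 had an unadjusted p below 0.05. Over the settings that left out an array or a line, the condition difference ranged from -0.29 to 1.90 for IL6R, -0.28 to 0.56 for JAK1, -0.39 to 0.080 for JAK2, -0.26 to 0.17 for TYK2, -0.040 to 0.064 for STAT3, -0.16 to 0.097 for SOCS3, -0.28 to 0.44 for PIM1 and -0.63 to 0.63 for PIM2, while SOCS1 stayed positive, from 0.10 to 0.75. With 1 condition alone, the line difference ranged from -1.57 to 0.62 for IL6R, -0.33 to 0.51 for JAK1, -0.19 to 0.28 for JAK2, -0.28 to 0.15 for TYK2 and -0.16 to 0.10 for SOCS3, and kept its sign in STAT3, SOCS1, PIM1 and PIM2. At 2-fold, 0 members were past the fold in ARP-1 (6.6% of tested genes) and IL6R in MM.1S (1.1% of tested genes). After quantile normalization 2 members were past 1.5-fold in ARP-1, SOCS1 at 0.62 and JAK1 at 0.61, beside 22.3% of tested genes. The cause of these changes was not tested.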

Other observations

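Among pathway genes under the filter, STAT5A, a STAT factor of cytokine signalling that was picked out after its values were seen, had 34.1 on the MIF-KO array and 11.5 on the CTR-KO array of ARP-1, and 15.7 (MIF-KO) and 14.1 (CTR-KO) in MM.1S. CISH, an inhibitor induced by STAT5 and also picked out afterwards, had 21.5 (MIF-KO) and 37.7 (CTR-KO) in ARP-1 and 27.5 (MIF-KO) and 26.0 (CTR-KO) in MM.1S. GAB2, a docking protein related to GAB1 and picked out in the same way, had 31.8 (MIF-KO) and 18.9 (CTR-KO) in ARP-1 and 25.9 (MIF-KO) and 51.4 (CTR-KO) in MM.1S. These values have no replicate within a line.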
